A study of Mus musculus with 9 samples.

Results

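The homeodomain genes of brain regional identity were taken as the protein-coding mouse genes whose GENCODE M21 symbols belong to the Hox, Lhx, Dlx, Irx, Nkx, Pax and sine oculis families, the last with genes such as Six3, by name alone and without any measured value. The rule found 88 of the 55450 genes counted: 39 Hox, 8 Lhx, 6 Dlx, 6 Irx, 14 Nkx, 9 Pax and 6 sine oculis genes. Their levels were read in 9 bulk RNA-seq libraries of dissected mouse nigral tissue, 3 in each of 3 groups, named here CTR, CX3 and DAT after their titles. CTR libraries came from CX3CR1-CreERT2 mice given a Cre-dependent lentivirus for GFP, described in the methods as a destabilized form. CX3 libraries came from CX3CR1-CreERT2 mice given the Cre-dependent Synuclein-expressing vector. DAT libraries came from DAT-Cre mice given that same vector. All were male mice transduced as adults at both substantiae nigrae, and the tissue was taken some weeks later. The study gives their age differently in its results and its methods. Cre in the CX3CR1 line is made in microglia and other myeloid cells and needs tamoxifen, and the methods describe tamoxifen for that line alone. Cre in the DAT line is made in dopaminergic neurons. CTR shares its Cre line with CX3 and not with DAT, and no DAT-Cre library with the GFP vector was analysed here. Line, tamoxifen, vector and piece of tissue therefore cannot be told apart in DAT against CTR. In CX3 against DAT the same holds for line, tamoxifen and piece of tissue. In CX3 against CTR, which share the line, vector and piece of tissue cannot be told apart. How many mice gave each library is not stated in the sources used here.

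A homeodomain is a stretch of about the same length in all of these families that folds into helices and binds DNA, and its coding sequence is called the homeobox. Such genes are switched on in bands and patches of the embryonic neural tube, and many adult neurons keep the set of their place of origin, so that in bulk tissue the set reads as a rough map of what was dissected. Hox genes, numbered along their clusters as paralog groups, mark the hindbrain and spinal cord, with higher numbers farther back. Nkx2-1, Nkx2-4 and Six6 are known from the hypothalamus, Dlx1, Dlx2, Dlx5, Dlx6 and Lhx6 from GABAergic neurons of the forebrain, Irx genes from the diencephalon to the hindbrain, and Pax3 and Pax7 from the dorsal neural tube, including the roof of the midbrain. In bulk tissue, fewer cells of a kind and less RNA per cell cannot be told apart.

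The homeobox was found in the coding transcripts of 83 of the 88 genes, and was not found whole in Pax1, Pax2, Pax5, Pax8 and Pax9. It is printed for 3 genes whose levels the results turn on: Hoxa5, whose group gave the steepest contrast, and Six3 and Six6, which moved in different directions in CX3. Each is the 180-base coding strand, 5′ to 3′, from GENCODE M21 transcripts on GRCm38. The homeobox of Hoxa5 lies within exon 2 of 2, at chr6:52202632-52202811 (minus strand).
Hoxa5: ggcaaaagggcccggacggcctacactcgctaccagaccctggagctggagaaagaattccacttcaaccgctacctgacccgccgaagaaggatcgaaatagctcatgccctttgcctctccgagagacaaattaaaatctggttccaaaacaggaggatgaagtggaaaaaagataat
The longest identical run between whole transcripts was 26 bases for Hoxa5 and Hoxb5, and 17 bases for Hoxc5 with either, against reads of 76 bases. These 3 genes of the fifth paralog group lie on 3 different chromosomes.

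The homeobox of Six3 (chr17:85621858-85622037, plus strand) and of Six6 (chr12:72940437-72940616, plus strand) lies in exon 1 of 2, and capitals mark the bases of Six6 that differ from Six3.
Six3: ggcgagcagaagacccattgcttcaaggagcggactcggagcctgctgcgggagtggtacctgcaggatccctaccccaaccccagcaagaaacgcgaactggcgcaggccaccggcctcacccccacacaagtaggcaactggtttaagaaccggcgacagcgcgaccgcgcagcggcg
Six6: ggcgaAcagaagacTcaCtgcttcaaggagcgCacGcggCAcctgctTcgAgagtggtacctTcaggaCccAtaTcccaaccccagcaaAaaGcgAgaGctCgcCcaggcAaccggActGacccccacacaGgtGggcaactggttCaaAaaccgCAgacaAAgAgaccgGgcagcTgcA
They differed at 34 of 180 bases, and their transcripts shared no identical run beyond 20 bases. The transcripts of Pax3 and Pax7 shared none beyond 26 bases. Among all pairs of the 88 genes, 6 pairs shared an identical run of 76 bases or more. Hoxd3 and Hoxd4 shared up to 388 bases, Hoxc5 and Hoxc10 up to 168, Irx3 and Irx6 up to 88, and Nkx2-1, Pax6 and Hoxd11 between 80 and 82 in each pairing.

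Reads counted on genes ranged from 21592817 to 39475428 per library, and 3 counts, taken as the floor of what can be read, equal 0.0779 to 0.151 CPM (counts scaled to a library of 1000000 reads). Intervals and floors cover counting error only. CTR libraries were the most alike, with squared differences over all genes 1.45 to 1.78 times those of random sampling, against 2.49 to 6.24 in CX3. DAT A and DAT C differed by 2.15 times and DAT B from either by 10.5 to 14.8 times, so the counts of DAT against CTR are also given without DAT B. Over the 49 homeodomain genes tested, the ratios were smaller, at 1.04 to 1.18 in CTR and 1.31 to 1.63 in CX3. For DAT A and DAT C the ratio was 1.36, and for DAT B with either 2.01 to 2.99. Dopaminergic neuron markers were present in every library, with a summed level of 833 to 841 CPM in CTR, 1015 to 1031 in CX3 and 643 to 659 in DAT. Cx3cr1, the gene that carries the CreERT2 allele in CTR and CX3, averaged 102, 44.6 and 83.4 CPM in CTR, CX3 and DAT. Markers of tissues next to the dissected region differed between groups as well. The summed level of 6 pituitary markers was 57.8 to 60.5 CPM in CTR, 3.06 to 3.12 in CX3 and 15.9 to 21.2 in DAT, and that of 4 choroid plexus markers 40.5 to 41.4, 1456 to 1567 and 851 to 1020. The part of these differences in the results on homeodomain genes was not tested.

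Of the 88 genes, 49 had enough counts to be tested: 11 Hox, 6 Lhx, 6 Dlx, 6 Irx, 7 Nkx, 7 Pax and 6 sine oculis genes. A gene entered the test if it reached the minimum in as few as 3 libraries, which can be those of 1 group. When CX3 and CTR alone were fitted, 4 of 39 Hox genes entered, so most of the Hox genes tested entered through DAT, where they were high. Counts over tested genes are therefore a description of them and not of all 88. In edgeR's quasi-likelihood test with Benjamini-Hochberg adjustment over all 20892 genes tested, a gene was called at an adjusted p under 0.05. In DAT against CTR, 35 of the 49 were called higher and 4 lower, beside 32% and 27.9% of all genes tested. At least 2-fold, 22 were higher and 4 lower, beside 3.88% and 12% of all genes. Without DAT B these counts were 35 higher and 5 lower, and at least 2-fold 24 higher and 4 lower.

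In CX3 against CTR fewer of these 49 genes were called. Here 8 were called higher and 15 lower, beside 14% and 16.5% of all genes tested, and at least 2-fold 2 were higher and 6 lower, beside 1.33% and 2.26%. The share called higher was near that of all genes, and the count of 15 was 9 without CTR A. Scaled by library size alone, 9 were called higher and 11 lower. In CX3 against DAT, 2 were called higher and 35 lower, beside 27.6% and 31.3% of all genes, and at least 2-fold 1 was higher and 25 lower, beside 11% and 4.37%. The median log2 fold change of the 49 genes was -0.03 in CX3 against CTR, 0.90 in DAT against CTR and -1.05 in CX3 against DAT, while the median of all genes tested lay between -0.00381 and 0.0103. Each pair of these comparisons shares 3 libraries. Most of the Hox genes among the 49 entered through DAT, where they were high. The medians therefore describe the tested genes and add no support.

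**Figure D1:**
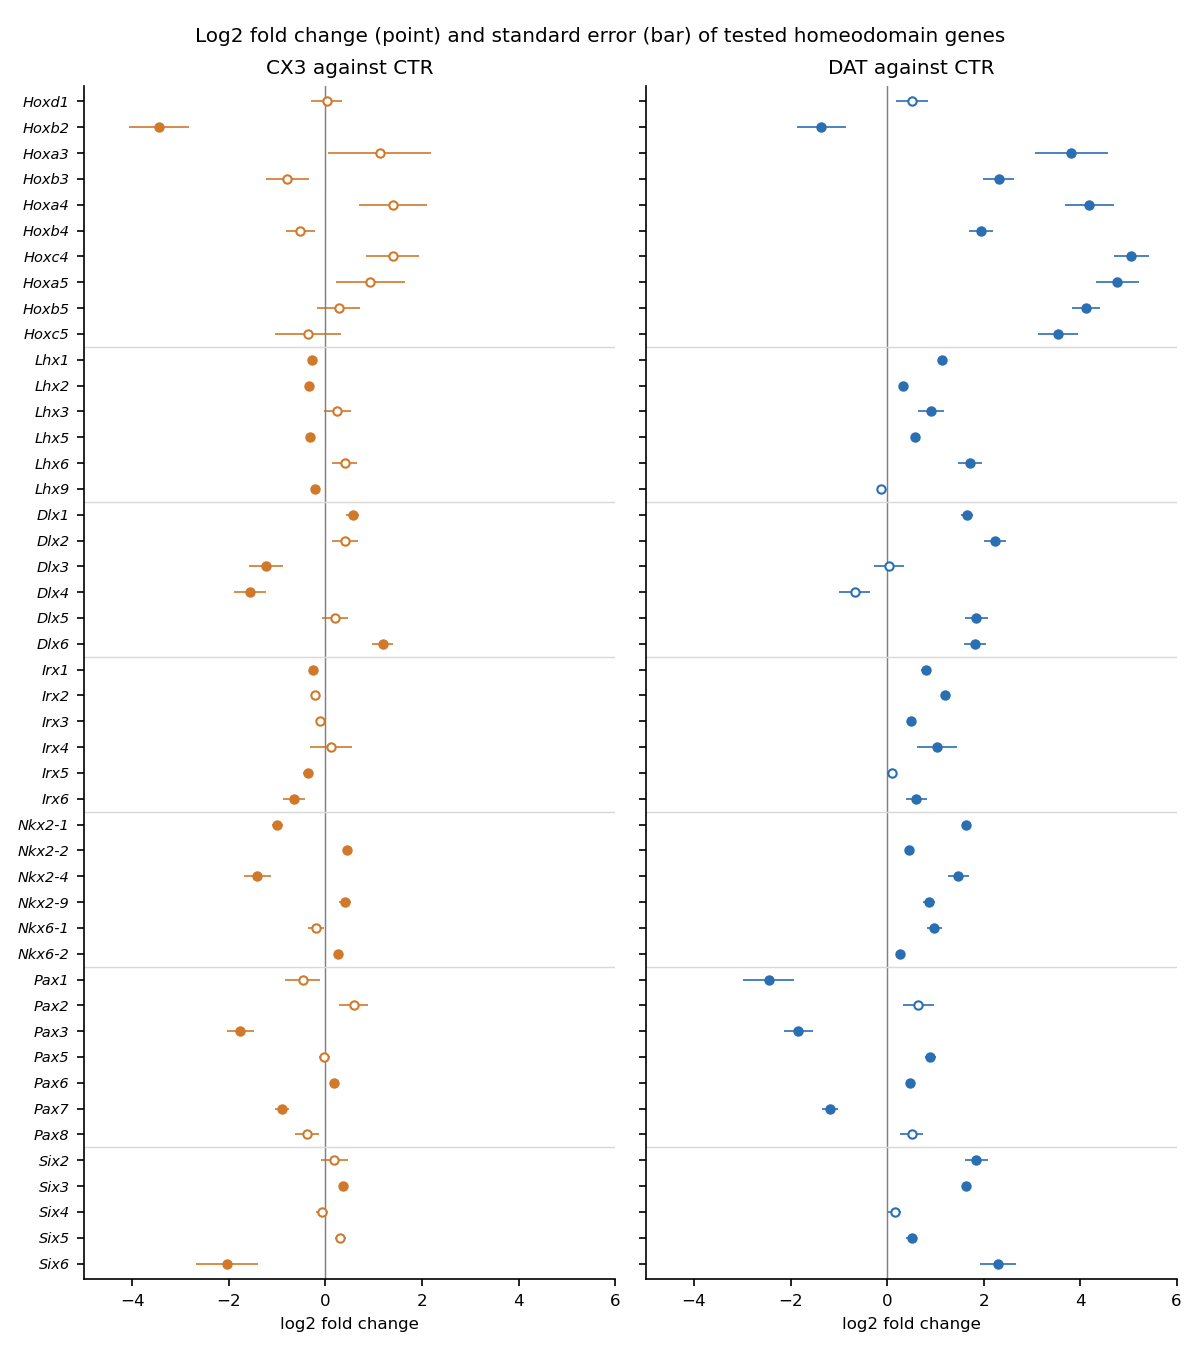
Log2 fold changes of 46 of the 49 tested homeodomain genes (horizontal axis) in CX3 against CTR (left) and DAT against CTR (right), ordered by family. Points are fitted values, bars their standard errors, and filled points passed an adjusted p under 0.05. In DAT 34 filled points lie to the right of 0 and 4 to the left, and in CX3 7 and 15.

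The Hox genes of paralog groups 3 to 5, which in the embryo are expressed up to the rear part of the hindbrain, gave the steepest contrast. All 8 tested genes of these groups rose in DAT, beside 32% of all genes tested. Most Hox genes tested entered through DAT, where they were high, so this count describes them and adds no support. Summed over all 10 genes of the 3 groups, the level was 1.51, 1.68 and 1.70 CPM in CTR, 1.04, 1.53 and 2.37 in CX3, and 15.3, 17.2 and 16.5 in DAT. The DAT libraries lie far above the others and the CTR and CX3 libraries overlap. By paralog group, the DAT mean was 0.951 ± 0.0834 CPM (SD, n = 3) for group 1, 0.649 ± 0.125 for group 2, 2.34 ± 0.414 for group 3, 7.75 ± 0.779 for group 4, 6.24 ± 0.233 for group 5 and 0.0887 ± 0.0617 for group 6. In CTR no group exceeded 0.956 ± 0.0582 CPM, the mean of group 1.

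**Figure D2:**
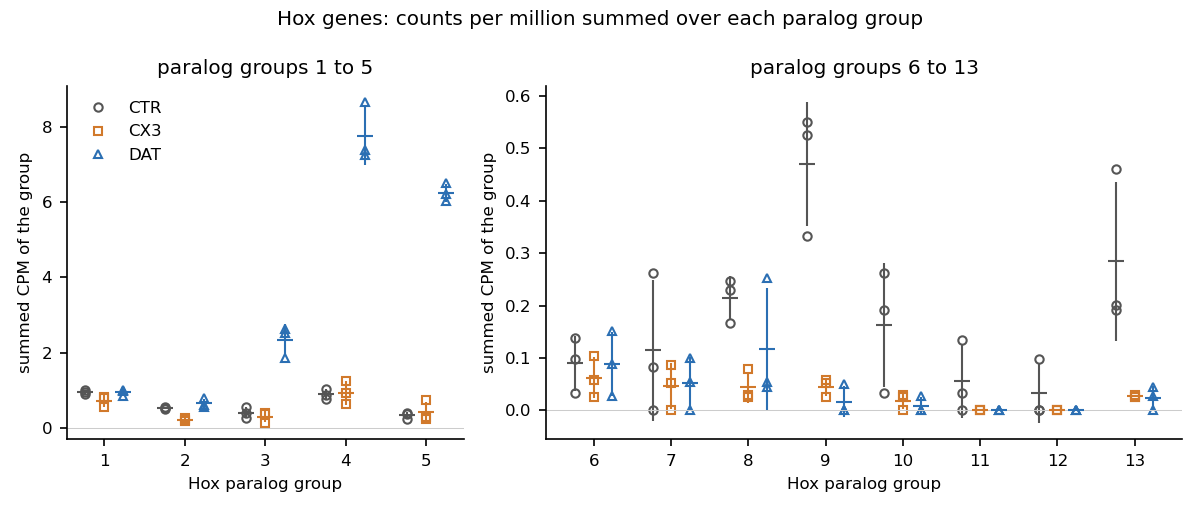
Level in CPM summed over the genes of each Hox paralog group, for groups 1 to 5 (left) and 6 to 13 (right, on a smaller scale). Symbols are libraries of CTR (circles), CX3 (squares) and DAT (triangles), horizontal ticks are means and bars SDs of 3 libraries. DAT stands above the rest in groups 3, 4 and 5 and falls to 0.0887 CPM in group 6.

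Hoxc4 (ENSMUSG00000075394.4, chr15:103018934-103036852, plus strand) moved most. It had 0.131, 0.137 and 0.0333 CPM in CTR, 0.208, 0.144 and 0.469 in CX3, and 3.89, 3.32 and 3.42 in DAT. In counts this is 4, 5 and 1 reads in CTR against 142, 66 and 78 in DAT, and its log2 fold change in DAT against CTR was 5.06 ± 0.36 (SE, adjusted p = 2.86e-08). The groups CTR and CX3 did not overlap for Hoxc4 either, but that difference missed the threshold (adjusted p = 0.0713).

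The 3 genes of the fifth paralog group, among them Hoxa5 with its homeobox printed above, rose together. Hoxa5 (ENSMUSG00000038253.6, chr6:52201754-52204587, minus strand) had 0.164, 0.0549 and 0.0333 CPM in CTR, 0.104, 0.0578 and 0.312 in CX3, and 2.03, 2.31 and 2.81 in DAT. Its log2 fold change in DAT against CTR was 4.77 ± 0.45 (SE, adjusted p = 5.32e-07). Hoxb5 (ENSMUSG00000038700.4, chr11:96303336-96306121, plus strand) had 0.164, 0.110 and 0.200 CPM in CTR, 0.130, 0.144 and 0.286 in CX3, and 3.04, 2.67 and 2.50 in DAT, a log2 fold change of 4.12 ± 0.29 (SE, adjusted p = 2.62e-08). Hoxc5 had 0.0328, 0.0824 and 0.167 CPM in CTR against 1.12, 1.06 and 1.18 in DAT, a log2 fold change of 3.54 ± 0.42 (SE, adjusted p = 5.39e-06). In all 3 genes every DAT library was above every other library, and CTR and CX3 overlapped. Per kilobase of exon, the DAT means were 1.27 CPM for Hoxa5, 0.982 for Hoxb5 and 0.363 for Hoxc5, so the copy on chromosome 15 was the lowest of the set.

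The other tested genes of the band rose in DAT as well. Hoxa4 went from 0, 0.0824 and 0.133 CPM in CTR to 1.21, 1.71 and 1.32 in DAT, a log2 fold change of 4.19 ± 0.51 (SE, adjusted p = 6.99e-06). Hoxb4 had the highest CTR level of the band, 0.591, 0.577 and 0.733 CPM, and 1.89, 3.17 and 2.46 in DAT, a log2 fold change of 1.95 ± 0.25 (SE, adjusted p = 1.02e-05). Hoxb3 went from 0.321 ± 0.135 CPM (SD, n = 3) to 1.69 ± 0.397, a log2 fold change of 2.31 ± 0.32 (SE, adjusted p = 2.68e-05). Hoxa3 had 3 reads in all of CTR and 39 in DAT, a ratio of 15.9 per scaled read with an exact 95% counting interval of 5.06 to 80.5 (adjusted p = 0.000561). Counting ignored strand, and the antisense gene Hoxb3os covers 52.9% of the exon bases of Hoxb3, while 27.1% of those of Hoxa3 and 16.0% of those of Hoxa4 are shared with neighbouring genes. All 8 rises were also called in the counts of each single strand where the gene entered the test. The 2 strand columns held nearly equal reads in every library, so these counts cannot separate reads of antisense or overlapping genes. The 2 untested genes of the band, Hoxd3 and Hoxd4, had 1 to 4 reads per library in CTR, 0 to 3 in CX3 and 3 to 9 in DAT, and they share exon bases with each other.

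**Figure D3:**
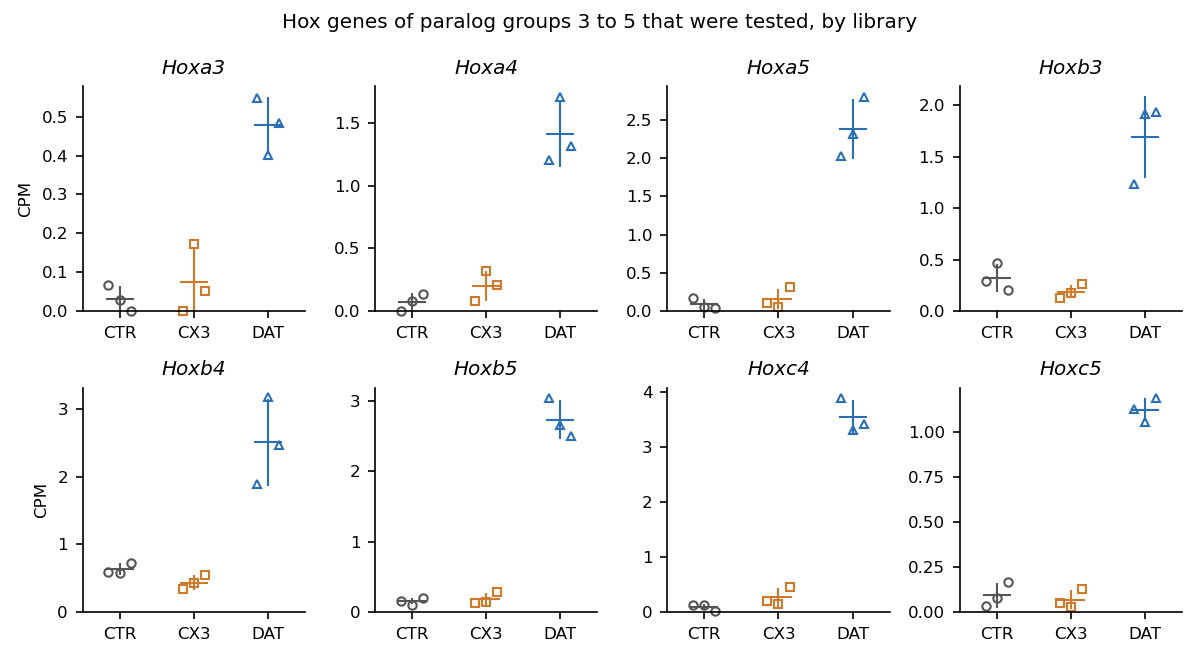
Level in CPM (vertical axis, from 0) of the 8 tested Hox genes of paralog groups 3 to 5 in each library of CTR, CX3 and DAT. Open symbols are libraries, ticks are means and bars SDs. In every panel the 3 DAT libraries lie above the 6 others.

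Ahead of this band the picture differed. Hoxb2, a gene of the hindbrain segments, fell in CX3, with 11, 17 and 14 reads in CTR and 1, 3 and 0 in CX3 (0.432 ± 0.0610 CPM in CTR, SD, n = 3), a log2 fold change of -3.46 ± 0.62 (SE, adjusted p = 0.00079). In DAT it had 3, 5 and 5 reads, and its log2 fold change of -1.36 ± 0.50 against CTR (SE, adjusted p = 0.0301) turned to 1.18 in reverse-strand counts and 0.60 in forward-strand counts. The antisense gene Hoxb3os covers 27.3% of its exon bases. Its call in DAT was lost without CTR B, without CTR C or without DAT A, with log2 fold changes of -1.32 to -0.89 and adjusted p of 0.0728 to 0.178. Hoxd1, of the first paralog group, was tested and called in none of the comparisons. Hoxb1, too low to test, had 7, 7 and 14 reads in CTR and 1 in the 6 other libraries together. Hoxa2, also untested, had 5, 3 and 1 reads in CTR, 7, 6 and 7 in CX3, and 19, 6 and 13 in DAT, or 0.164, 0.0824 and 0.0333 CPM in CTR and 0.521, 0.302 and 0.570 in DAT. Its CTR and DAT libraries did not overlap.

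Other genes of the hindbrain, from a list outside the families, did not follow the Hox band as a group. Of 10 hindbrain factors 5 were tested, and in DAT against CTR 2 rose and 2 fell, beside 32% and 27.9% of all genes tested. Zic1, a zinc finger gene of the dorsal hindbrain and cerebellum, rose from 89.4 ± 0.780 to 126 ± 3.56 CPM (SD, n = 3), while Atoh1 and Ptf1a had no read in DAT. Of 2 cerebellar granule cell markers, Fat2 averaged 0.569 CPM in CTR, 1.58 in CX3 and 14.2 in DAT, and Gabra6 stayed between 0.0755 and 0.111 CPM in the group means. The summed level of 3 serotonergic neuron markers was 13.6 to 14.1 CPM in CTR, 24.7 to 25.0 in CX3 and 16.9 to 18.8 in DAT. Among 9 TALE cofactors, homeodomain proteins that bind DNA together with Hox proteins, 6 rose and 1 fell in DAT, beside the same 32% and 27.9%, with changes far smaller than those of the Hox genes, such as 0.45 on the log2 scale for Pbx2. The part of these other cells in the Hox result was not tested.

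The Hox genes of paralog groups 6 to 13, which belong to the spinal cord, were near or under the floor in every library, and none of the 24 was tested. Their summed level was 1.97, 1.40 and 0.900 CPM in CTR, 0.130, 0.289 and 0.312 in CX3, and 0.192, 0.553 and 0.176 in DAT. In CTR 11 to 19 of the 24 had a read, in CX3 5 to 8 and in DAT 3 to 5. Over all 39 untested homeodomain genes, 12 had reads in CTR and none in CX3 or DAT, 1 had the opposite pattern, and 3 had no read anywhere. Such scattered reads were more frequent in CTR outside the families too. Of 1093 olfactory receptor genes, 44.6% to 47.1% had a read in CTR libraries, 14.5% to 15.3% in CX3 and 5.12% to 8.60% in DAT, and the share of reads outside annotated genes was at least 9.82% in CTR, 8.36% to 9.47% in CX3 and 5.45% to 5.58% in DAT. Their part in the CTR reads of rear Hox genes, and of Hoxb1 and Hoxb2, was not tested. Nkx2-5, a heart gene, was the untested gene with the highest count of a library, with 2, 12 and 23 reads in the DAT libraries and 0 to 4 elsewhere.

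**Figure D4:**
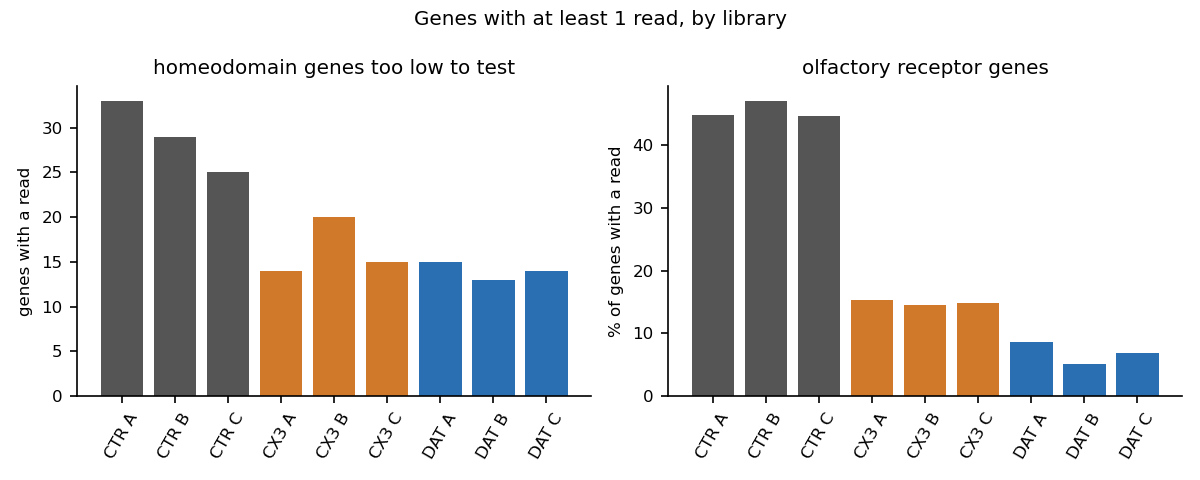
Number of the 39 untested homeodomain genes with at least 1 read (left) and percentage of 1093 olfactory receptor genes with at least 1 read (right), by library. CTR libraries stand highest in both panels, with 25 to 33 genes and 44.6% to 47.1%.

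Genes of the hypothalamus moved in opposite directions in CX3 and DAT. Nkx2-1 (ENSMUSG00000001496.15, chr12:56531958-56536908, minus strand), which specifies the ventral hypothalamus, had 4.11, 4.37 and 4.53 CPM in CTR, 2.26, 1.99 and 2.24 in CX3, and 14.4, 12.9 and 13.1 in DAT. No pair of groups overlapped. It fell in CX3 by 1.00 ± 0.11 on the log2 scale (SE, adjusted p = 1.38e-05) and rose in DAT by 1.64 ± 0.09 (adjusted p = 2.79e-09). Its close relative Nkx2-4 (ENSMUSG00000054160.2, chr2:147083316-147085445, minus strand) had 1.31, 1.57 and 1.07 CPM in CTR, 0.260, 0.664 and 0.573 in CX3, and 3.26, 3.97 and 3.95 in DAT. It fell in CX3 by 1.42 ± 0.28 (SE, adjusted p = 0.00172) and rose in DAT by 1.47 ± 0.22 (adjusted p = 4.24e-05). The transcripts of Nkx2-1 and Nkx2-4 share no identical run beyond 32 bases.

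Six6 (ENSMUSG00000021099.6, chr12:72939892-72944899, plus strand), a gene of the hypothalamus, pituitary and eye, had 0.263, 0.192 and 0.133 CPM in CTR, 0.0779, 0.0578 and 0 in CX3, and 0.932, 1.06 and 0.965 in DAT. In counts this is 8, 7 and 4 reads in CTR, 3, 2 and 0 in CX3, and 34, 21 and 22 in DAT. Its rise in DAT was 2.29 ± 0.37 on the log2 scale (SE, adjusted p = 0.000103). Its fall in CX3, -2.04 ± 0.64 (SE, adjusted p = 0.0267), was lost when CTR A, CTR B, CX3 B or CX3 C was left out, with log2 fold changes of -2.22 to -1.47 and adjusted p of 0.0546 to 0.101.

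A list of 10 factors of the diencephalon and hypothalamus outside the families showed the same split. Of its 9 tested genes, 8 rose in DAT against CTR, beside 32% of all genes tested, while 7 fell in CX3 against CTR, beside 16.5%. Otp, a homeodomain gene of hypothalamic neurons, averaged 3.78 ± 0.685 CPM in CTR, 3.67 ± 0.466 in CX3 and 9.47 ± 0.259 in DAT (SD, n = 3). Barhl1, known from mammillary and subthalamic neurons, averaged 2.69 ± 0.0693, 2.09 ± 0.0323 and 9.08 ± 0.278 CPM. Rax, a gene of the hypothalamus and its tanycytes, averaged 0.227 CPM in CTR, 0.0183 in CX3 and 0.822 in DAT. Beside these stand the pituitary markers. Pomc, also made by hypothalamic neurons, averaged 17.9, 2.73 and 17.2 CPM in CTR, CX3 and DAT, while the pituitary hormone genes Gh and Prl averaged 34.7 and 5.85 CPM in CTR, 0.217 and 0.0539 in CX3, and 0.103 and 0 in DAT. Of the other 3 markers of the list, all too low to test, Tbx19 averaged 0.193 CPM in CTR, 0.00868 in CX3 and 0.428 in DAT, while Cga and Pou1f1 averaged 0.134 and 0.178 CPM in CTR and at most 0.0443 in CX3 and DAT. The pituitary markers thus did not share 1 order of the groups.

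**Figure D5:**
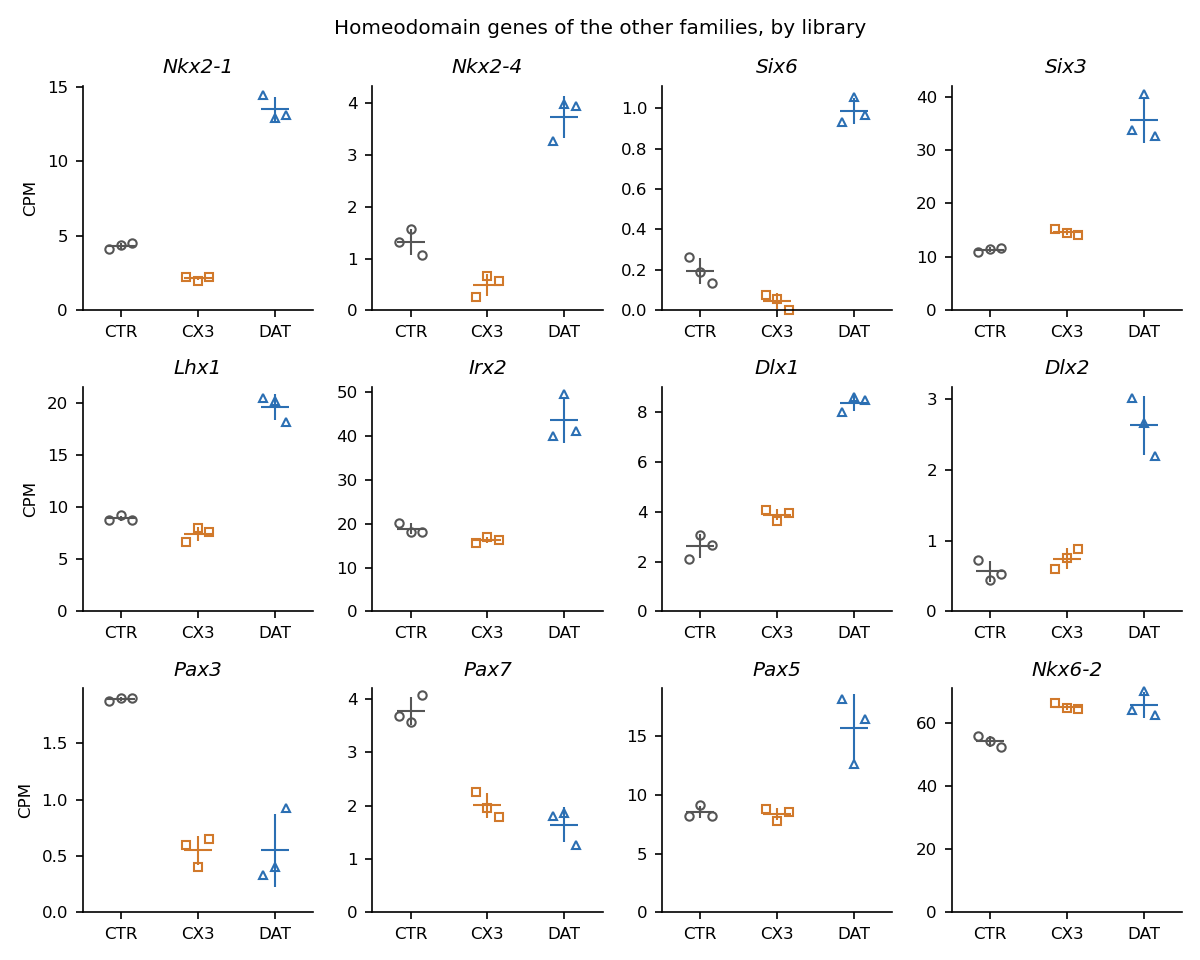
Level in CPM (vertical axis, from 0) of 12 homeodomain genes outside the Hox family in each library of CTR, CX3 and DAT. Open symbols are libraries, ticks are means and bars SDs of 3 libraries. DAT is highest for Nkx2-1, Nkx2-4, Six6, Six3, Lhx1, Irx2, Dlx1, Dlx2 and Pax5, and CTR is highest for Pax3 and Pax7.

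Other sine oculis genes were higher in DAT as well. Six3 (ENSMUSG00000038805.10, chr17:85613608-85629302, plus strand), a gene of the anterior forebrain and of striatal neurons, had 11.0, 11.5 and 11.7 CPM in CTR, 15.2, 14.5 and 14.1 in CX3, and 33.6, 40.5 and 32.7 in DAT. It rose in DAT by 1.64 ± 0.08 (SE, log2, adjusted p = 6.59e-10) and in CX3 by 0.36 ± 0.08 (adjusted p = 0.00502). In CX3, then, Six3 was above CTR where Six6 was below it. Six2, better known from kidney and skull, had 0.427, 0.330 and 0.333 CPM in CTR, 0.415, 0.347 and 0.469 in CX3, and 1.32, 1.36 and 1.27 in DAT. It rose in DAT by 1.85 ± 0.24 on the log2 scale (SE, adjusted p = 1.56e-05), and CTR and CX3 overlapped. Among 12 partners of LIM homeodomain and sine oculis proteins, 7 rose and 2 fell in DAT, beside 32% and 27.9% of all genes tested, and Eya2, a cofactor of the latter, rose by 1.10 on the log2 scale. The summed level of 4 striatal neuron markers was 72.5 to 75.7 CPM in CTR, 73.2 to 77.1 in CX3 and 81.3 to 84.6 in DAT.

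The Dlx genes of forebrain GABAergic neurons rose in DAT as a set of 4, beside 32% of all genes tested. Dlx1 (ENSMUSG00000041911.3, chr2:71528113-71533981, plus strand) had 2.10, 3.08 and 2.67 CPM in CTR, 4.05, 3.64 and 3.96 in CX3, and 8.01, 8.60 and 8.47 in DAT, so that the 3 groups were ordered without overlap. Its log2 fold change was 1.66 ± 0.13 in DAT (SE, adjusted p = 5.75e-08) and 0.56 ± 0.13 in CX3 (adjusted p = 0.00556), and the latter was 0.23 and not called in reverse-strand counts. Dlx2, its neighbour on the chromosome, had 0.723, 0.440 and 0.533 CPM in CTR and 3.02, 2.67 and 2.19 in DAT, a log2 fold change of 2.24 ± 0.23 (SE, adjusted p = 1.4e-06), and overlapped between CTR and CX3. Dlx5 and Dlx6 rose in DAT by 1.85 ± 0.24 and 1.82 ± 0.22 on the log2 scale. Dlx6 also rose in CX3, from 0.854, 0.769 and 0.867 CPM to 2.03, 1.82 and 1.80, a log2 fold change of 1.18 ± 0.23 (SE, adjusted p = 0.00131).

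Dlx3 and Dlx4, known from skin, teeth and placenta rather than brain, went the other way. Dlx4 fell in CX3 from 16, 19 and 12 reads to 6, 6 and 6, a log2 fold change of -1.56 ± 0.34 (SE, adjusted p = 0.00322). Dlx3 fell from 14, 14 and 11 reads to 8, 5 and 6, a log2 fold change of -1.22 ± 0.35 (SE, adjusted p = 0.0172) that was lost without CTR A, CX3 B or CX3 C, at adjusted p of 0.0587 to 0.0679. Neither was called in DAT against CTR. Scattered reads were also more frequent in CTR, where 44.6% to 47.1% of olfactory receptor genes had a read, against 14.5% to 15.3% in CX3. Their part in these 2 falls was not tested.

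Outside the families, all 8 tested genes of a list of 10 telencephalon factors rose in DAT and 1 rose in CX3, beside 32% and 14% of all genes tested. Isl1, a LIM factor of striatal and cholinergic neurons, averaged 1.63 ± 0.356 CPM in CTR, 2.16 ± 0.253 in CX3 and 7.33 ± 0.0807 in DAT (SD, n = 3). The summed level of 4 forebrain excitatory neuron markers was 38.9 to 42.1 CPM in CTR, 70.8 to 75.2 in CX3 and 153 to 178 in DAT. Most of it was Slc17a7, the vesicular glutamate transporter that cerebellar granule cells make as well, with 37.0, 70.2 and 160 CPM. The part of these cells in the Dlx values was not tested.

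Among LIM homeodomain genes, 5 of the 6 tested rose in DAT, beside 32% of all genes tested. In CX3 4 fell slightly, beside 16.5% of all genes. Lhx1 (ENSMUSG00000018698.15, chr11:84518284-84525535, minus strand), a gene of hypothalamic, midbrain and hindbrain neurons, had 8.77, 9.20 and 8.73 CPM in CTR, 6.62, 7.97 and 7.58 in CX3, and 20.4, 20.1 and 18.2 in DAT. Its rise in DAT was 1.14 ± 0.08 on the log2 scale (SE, adjusted p = 2.82e-08). Lhx6, a gene of interneurons born in the ventral forebrain, rose from 0.600 ± 0.0807 to 2.02 ± 0.378 CPM (SD, n = 3), a log2 fold change of 1.72 ± 0.24 (SE, adjusted p = 2.62e-05). Lhx5 rose from 9.41 ± 0.273 to 14.0 ± 1.40 CPM and Lhx2 from 10.4 ± 0.278 to 13.1 ± 0.662. Lhx9, a gene of thalamic and midbrain neurons, was the tested gene of the family not called in DAT, with 18.9, 20.2 and 18.7 CPM in CTR and 16.9, 18.9 and 17.2 in DAT.

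The Irx genes followed the LIM genes in their counts. In DAT against CTR 5 of 6 rose, Irx5 being the exception, beside 32% of all genes tested. In CX3 against CTR 3 fell, beside 16.5% of all genes. Irx2 (ENSMUSG00000001504.10, chr13:72628820-72634198, plus strand) had 20.3, 18.2 and 18.1 CPM in CTR, 15.6, 16.9 and 16.2 in CX3, and 40.1, 49.5 and 41.2 in DAT, with a log2 fold change in DAT of 1.20 ± 0.08 (SE, adjusted p = 1.38e-08). Its CTR and CX3 libraries did not overlap, but the difference missed the threshold (adjusted p = 0.0621). Irx1 and Irx3 rose in DAT from 10.6 ± 1.10 to 18.5 ± 0.810 CPM and from 10.4 ± 0.0711 to 14.7 ± 1.10 (SD, n = 3). Per kilobase of exon, Irx2 was the second highest of the 88 genes in CTR at 5.75 CPM, after Nkx6-2 at 28.4. Irx1, Irx3 and Lhx5 followed at 4.04, 3.77 and 3.50 CPM per kilobase.

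Most of the small decreases in CX3 kept their direction but not their call when libraries were left out in turn. The falls of Lhx1, Lhx2, Lhx9, Irx1 and Irx6 were between 0.22 and 0.65 on the log2 scale in size, and each was lost with some library left out. Lhx1 was lost without any one of CTR A, CTR B, CTR C, CX3 A and CX3 C (log2 -0.29 to -0.20, adjusted p 0.0522 to 0.107). Lhx9 was lost without CTR A, CTR B, CX3 A or CX3 C (-0.24 to -0.18, adjusted p 0.0516 to 0.114), and Lhx2 without CX3 B (-0.26, adjusted p 0.0537). Irx1 was lost without CTR A, CTR B, CX3 A, CX3 B or DAT C (-0.26 to -0.17, adjusted p 0.0551 to 0.226). Irx6 was lost without any one of CTR A, CTR B, CTR C, CX3 A, CX3 B, DAT A and DAT C (-0.71 to -0.50, adjusted p 0.0509 to 0.164). Its rise in DAT, 0.61 ± 0.21 (SE, adjusted p = 0.0235 in edgeR's test), was lost without CTR A, CTR B, CTR C or DAT B (0.53 to 0.64, adjusted p 0.0509 to 0.0846). The fall of Lhx5 in CX3, -0.32 ± 0.08 (SE, adjusted p = 0.0106), kept its call with each library left out in turn.

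Midbrain factors outside the families were listed as well. Of 15 tested, 7 rose in DAT against CTR, beside 32% of all genes tested, and 5 rose and 1 fell in CX3, beside 14% and 16.5%. Among the genes that dopaminergic neurons express, En1, which rose in both, averaged 10.2 ± 0.358 CPM in CTR, 13.6 ± 1.49 in CX3 and 11.9 ± 0.265 in DAT, and Nr4a2, called in none of the comparisons, averaged 16.7 ± 0.316, 17.6 ± 1.11 and 18.0 ± 1.22 (SD, n = 3). Gata2, of midbrain GABAergic neurons, rose in DAT from 8.10 ± 0.362 to 15.5 ± 0.601 CPM.

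Pax3 and Pax7 were the clearest genes that fell in both CX3 and DAT, 2 comparisons that share the CTR libraries. Pax3 (ENSMUSG00000004872.15, chr1:78101267-78197134, minus strand) had 1.87, 1.90 and 1.90 CPM in CTR, 0.597, 0.404 and 0.651 in CX3, and 0.329, 0.402 and 0.922 in DAT. Its log2 fold change was -1.76 ± 0.27 in CX3 (SE, adjusted p = 0.000254) and -1.84 ± 0.30 in DAT (adjusted p = 0.000107). Pax7 (ENSMUSG00000028736.13, chr4:139737062-139833528, minus strand) had 3.68, 3.57 and 4.07 CPM in CTR, 2.26, 1.96 and 1.80 in CX3, and 1.81, 1.86 and 1.27 in DAT. Its log2 fold change was -0.91 ± 0.15 in CX3 (SE, adjusted p = 0.00039) and -1.18 ± 0.16 in DAT (adjusted p = 2.26e-05). For both genes all CTR libraries lie above all others, and CX3 and DAT overlap. Pax7 is also made in the intermediate lobe of the pituitary. Of the markers made there, Pomc averaged 17.9 CPM in CTR, 2.73 in CX3 and 17.2 in DAT, and Tbx19 0.193, 0.00868 and 0.428. Pomc fell in CX3 and was not called in DAT, and Tbx19 was too low to test. Pomc is also made by hypothalamic neurons. The other pituitary markers of the list, Gh, Prl, Cga and Pou1f1, were highest in CTR, as Pax7 was. The part of pituitary tissue in the Pax7 values was not tested.

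Among the other Pax genes, Pax1, known from the skeleton and thymus, had 10, 12 and 13 reads in CTR, 7, 8 and 14 in CX3, and 3, 1 and 1 in DAT, a log2 fold change in DAT of -2.45 ± 0.53 (SE, adjusted p = 0.00109). It was also called higher in CX3 than in DAT. Olfactory receptor genes with a read followed the same order, at 44.6% to 47.1% in CTR, 14.5% to 15.3% in CX3 and 5.12% to 8.60% in DAT. The part of such scattered reads in the Pax1 values was not tested. Pax5 (ENSMUSG00000014030.15, chr4:44524757-44710487, minus strand), a gene of the midbrain-hindbrain boundary and of B cells, had 8.24, 9.17 and 8.23 CPM in CTR, 8.83, 7.83 and 8.54 in CX3, and 18.2, 12.6 and 16.5 in DAT. It rose in DAT by 0.90 ± 0.11 on the log2 scale (SE, adjusted p = 1.02e-05), and CTR and CX3 overlapped. The B cell markers moved the other way, with all 4 lower in DAT, beside 27.9% of all genes tested. Their summed level was 11.5 to 13.7 CPM in CTR, 3.79 to 4.13 in CX3 and 2.82 to 3.42 in DAT. Pax6 had 13.5, 13.1 and 13.3 CPM in CTR, 14.9, 15.8 and 14.7 in CX3, and 17.9, 18.9 and 19.0 in DAT. It rose in DAT by 0.48 ± 0.06 (SE, adjusted p = 1.18e-05), while its rise of 0.18 in CX3 was lost with any one of the 6 CTR and CX3 libraries left out (0.15 to 0.20, adjusted p 0.0514 to 0.137). Pax2 was called in none of the comparisons, and Pax8 only in CX3 against DAT.

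Among the remaining Nkx genes, Nkx2-2, Nkx2-9 and Nkx6-2 rose in both CX3 and DAT, and Nkx6-1 was called in DAT but not in CX3. Nkx6-2 (ENSMUSG00000041309.17, chr7:139579376-139582797, minus strand), which oligodendrocytes express, had the highest level per kilobase of all 88 genes in each group. It had 55.8, 54.1 and 52.3 CPM in CTR, 66.3, 64.5 and 64.4 in CX3, and 64.2, 70.1 and 62.4 in DAT. Its log2 fold change was 0.27 ± 0.05 in CX3 (SE, adjusted p = 0.0014) and 0.28 ± 0.05 in DAT (adjusted p = 0.000404). The gene Inpp5a on the opposite strand covers 12.9% of its exon bases, and in single-strand counts the DAT value was 0.13 and 0.14 and missed the threshold (adjusted p = 0.065 and 0.0603). Nkx2-2, of oligodendrocyte precursors and ventral neurons, rose from 9.76 ± 1.01 CPM in CTR to 13.4 ± 0.362 in CX3 and 13.5 ± 0.719 in DAT (SD, n = 3). Beside them, the summed level of 4 oligodendrocyte markers was 16145 to 16200 CPM in CTR, 17255 to 17743 in CX3 and 12129 to 12977 in DAT, and that of 2 markers of their precursors 90.0 to 91.8, 74.1 to 77.9 and 116 to 124.

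Nkx6-1, of ventral hindbrain and midbrain neurons, rose in DAT from 2.20 ± 0.403 to 4.37 ± 0.363 CPM (SD, n = 3), a log2 fold change of 0.98 ± 0.15 (SE, adjusted p = 6.87e-05), and in CX3 its libraries overlapped those of CTR.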

How the data were processed

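RNA of dissected nigral tissue was made into stranded mRNA libraries and sequenced by the authors as 76-base reads, which were trimmed with Trimmomatic and aligned with STAR to the mm10 mouse genome. The authors deposited raw counts per gene for each of the 9 libraries. The methods name featureCounts, but each file is laid out as STAR writes its gene table: an unstranded column and a column per strand. The unstranded column was used, since the single-strand columns held nearly equal numbers of reads. Lines that name no gene (unmapped, multimapping, ambiguous and no-feature reads) stayed out of library sizes and tests. Gene symbols, positions and overlaps came from GENCODE M21 on GRCm38 by gene identifier.

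Genes were filtered with filterByExpr of edgeR 4.0.16 in R 4.3.3 (minimum count 10), scaled by TMM and fitted over all 3 groups with glmQLFit and glmQLFTest, with Benjamini-Hochberg adjustment over all genes tested and a threshold of 0.05. CPM values are counts scaled to a library of 1000000 reads, with TMM-scaled library sizes, and CPM per kilobase divides by the exon bases of the gene. Homeodomain genes with values in the text are those called with at least a 2-fold change in any comparison (at most 30), the 12 with the highest mean level and the highest of each of the 7 families. Others, such as Hoxa2, Hoxb1, Hoxd3, Hoxd4, Nkx2-5, Pax2 and Pax8, complete a count or were chosen after their values were seen. Some genes and sequences that the rule would name are counted but not reported here by name. The homeodomain genes and the lists of other genes were chosen with earlier results of these data known. The labels do not say that libraries came from separate animals, so p-values measure the spread between libraries, which may be technical. The labels name no batch. Alternatives were DESeq2 1.42.0 as scaling and as test, library size alone, weaker and stricter filters, single-strand counts, fits of only the groups compared, the replicate letter as a block, and each library left out in turn. The fits were tested on simulated data.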

Additional observations from a re-analysis of the deposited data

How the results depend on the processing

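Of 89 calls on named genes, 70 kept direction and call in every alternative in which the gene was tested, 19 were lost in at least 1, and 1 of these reversed, Hoxb2 in DAT against CTR, at 1.18 in reverse-strand and 0.60 in forward-strand counts. DESeq2's size factors lost 0 of the 89 calls and DESeq2's own test 4.

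Counts of called homeodomain genes moved most with the filter, which sets how many of the 88 are tested (85 with at least 1 count, 33 with at least 10 counts in every library). With at least 1 count, those at least 2-fold lower went from 6 to 11 in CX3 against CTR and from 4 to 11 in DAT against CTR, where all called lower also went from 4 to 11. With at least 10 counts in every library, those at least 2-fold lower were 1 in CX3 against CTR, 1 in DAT against CTR and 14 in CX3 against DAT (from 25), those at least 2-fold higher were 13 in DAT against CTR (from 22) and 0 in CX3 against DAT, those lower in DAT against CTR were 2, and those higher in CX3 against DAT were 1. In reverse-strand counts, 5 were higher (from 8) and 1 at least 2-fold higher (from 2) in CX3 against CTR, 2 were lower and 2 at least 2-fold lower in DAT against CTR, and 0 were higher in CX3 against DAT, also at 2-fold and also at an unadjusted p under 0.05 in edgeR (DESeq2's test on the unstranded counts called 2). In forward-strand counts, 8 were lower (from 15) and 1 at least 2-fold higher in CX3 against CTR, 2 were at least 2-fold lower in DAT against CTR, and 1 was higher in CX3 against DAT. With only those groups fitted, 1 was higher in CX3 against DAT and 0 at 2-fold, and with library size alone 5 were higher (from 2), a scaling under which the median log2 fold change of all genes was 0.20 in place of 0.01. With libraries left out in turn, 9 to 16 were lower in CX3 against CTR, the lowest without CTR A. The cause was not tested.

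Libraries share only a letter. Deviations of same-letter libraries from their group means correlated at -0.244 to 0.0695, so the letters were not taken as pairs. With the replicate block, CX3 against CTR had 7 higher, 13 lower and 7 at least 2-fold lower, and lost Irx1, Irx6 and Pax6, while the counts of DAT against CTR stayed at 35 and 4 and those of CX3 against DAT at 2 and 35. Genes with a few reads per library, among them the Hox genes in CTR, are limited by depth.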
